A study of Mus musculus with 15 samples.

Results

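The 10 genes described here code for salt-inducible kinases and other parts of the cAMP pathway. They are the kinases Sik1, Sik2 and Sik3, the coactivators Crtc2 and Crtc3, the transcription factor Crem, the phosphodiesterases Pde3b, Pde4b and Pde4d, and the adenosine receptor Adora2a. They are 10 of 27019 gene symbols in the count table, and all 10 were among the 16057 genes that passed the filter on low counts. Sik1 was chosen from the data, as the gene with the strongest genotype-by-day difference in a fit across all genes (rank 1 by p-value). The other 9 genes joined it for their place in the pathway, with earlier results of these data known. Sik1 therefore has values and no test in each comparison, and the genotype-by-day difference is given without a test for each of the 10 genes.

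The RNA came from CD8+ T cells isolated from the spleens of OT-I mice, whose T cells carry a transgenic receptor for the ovalbumin peptide OVA257-264. All mice were C57BL/6 and 8 to 10 weeks old. The 4 groups, with 2 libraries each, were Susd2-/- day 3, WT day 3, Susd2-/- day 0 and WT day 0. Day 3 cells came from whole splenocytes stimulated with the peptide for 3 days, and day 0 cells were untreated. The labels say neither how Susd2 was deleted nor that each library was made from its own mouse. The p-values therefore measure the spread between libraries, which may be technical.

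Cyclic AMP is made by adenylyl cyclases when receptors coupled to the G protein Gs are engaged, and it activates protein kinase A (PKA). In resting cells the salt-inducible kinases, switched on by the kinase LKB1, phosphorylate CRTC coactivators and class IIa histone deacetylases and so hold them in the cytoplasm, bound to 14-3-3 proteins. PKA phosphorylates the salt-inducible kinases and blocks this action, and it phosphorylates the factor CREB, so that CREB and CRTC together switch on genes with cAMP response elements. Sik1 and Crem are themselves CREB targets, and phosphodiesterases end the signal by hydrolysing cAMP. In T cells, cAMP raised by adenosine or prostaglandin E2 is known to dampen receptor signalling.

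Total counts per library were 26829807 to 53846911. Susd2, the deleted gene, had 0 and 2 counts in the Susd2-/- day 3 libraries against 16 and 10 in WT day 3, and 1 and 3 in Susd2-/- day 0 against 90 and 80 in WT day 0, in the direction of the labels. Levels are given as CPM, the count of a gene relative to its library's total, with the scaling factors of the trimmed mean of M values (TMM). The 6 CD8 T cell markers (Cd8a, Cd8b1, Cd3e, Cd3d, Cd3g and Trac) summed to 1798 to 1860 CPM in Susd2-/- day 3, 1856 to 1919 in WT day 3, 3336 to 3528 in Susd2-/- day 0 and 3899 to 3910 in WT day 0. The 14 macrophage and monocyte markers summed to 174.6 to 190.9 CPM in Susd2-/- day 0 and 89.9 to 90.2 in WT day 0, and to 11.2 to 13.2 in Susd2-/- day 3 and 11.7 to 15.4 in WT day 3. In bulk RNA, a change in the number of cells of a type and a change in RNA per cell cannot be told apart.

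A cAMP response element holds the letters TGACGTCA, and its core is TGACG. RefSeq promoter windows (GRCm38.p6, 250 bases before to 50 after each start) matched 5 of the 10 genes: Sik2, Sik3, Crtc3, Pde4b and Pde4d. The windows of Sik1, Crem, Crtc2, Pde3b and Adora2a were not examined. The core, on either strand, was found in 3 of the 8 windows of the matched genes, 1 each of Sik2, Sik3 and Pde4b. Of 32851 mouse promoter windows, 20.8% held it. None of these 8 windows held the full element, which 1.79% of all windows hold. Stretches of 2 of these windows are shown because they carry cores before a transcript start of a gene that rose in Susd2-/- cells at day 0 (Sik3) and of one that did not pass (Pde4b). The Pde4b stretch lies inside the gene, before 1 of its internal transcript starts, and the other 3 Pde4b windows held no core. The cores are in capitals, as TGACG or, read on the other strand, CGTCA. The Sik3 stretch (chr9:46012670-46012779, plus strand) has 3 cores, and the Pde4b stretch (chr4:102421455-102421554, plus strand) has 1.
Sik3: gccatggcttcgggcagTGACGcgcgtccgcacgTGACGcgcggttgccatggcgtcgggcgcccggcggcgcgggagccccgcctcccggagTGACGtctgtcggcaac
Pde4b: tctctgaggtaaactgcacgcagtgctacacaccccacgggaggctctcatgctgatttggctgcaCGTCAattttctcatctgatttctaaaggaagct
A match describes the letters and does not show a bound site.

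Sik1 was far higher in Susd2-/- day 0 cells than in the 3 other groups, whose means were 62.55 (Susd2-/- day 3), 69.5 (WT day 3) and 76.9 CPM (WT day 0). Its gene lies at chr17:31844250-31855804 on the minus strand (GRCm38). The level was 63.8 and 61.4 CPM in the Susd2-/- day 3 libraries and 70.1 and 68.8 in WT day 3. It was 304.1 and 309.6 CPM in Susd2-/- day 0 and 77.2 and 76.6 in WT day 0. Both untreated Susd2-/- libraries thus stood far above the other 6, and the groups did not overlap on either day. The fold change of Susd2-/- over WT was 3.99 at day 0, a log2 fold change of 2.00 ± 0.064 (SE, n = 2 each). At day 3 the log2 fold change was -0.15 ± 0.064, the 2 Susd2-/- libraries being the lower ones.

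The genotype effect on Sik1 at day 3 minus that at day 0 was -2.15 ± 0.09 on the log2 scale. That value ranked 1 by p-value and 940 by absolute size among the 16057 genes. The genes just below Sik1 in the p-value ranking were Atf3, another CREB target, with -3.34 ± 0.18, and Klf6, a zinc finger factor, with -1.44 ± 0.08. These values chose Sik1 and are a description.

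**Figure D1:**
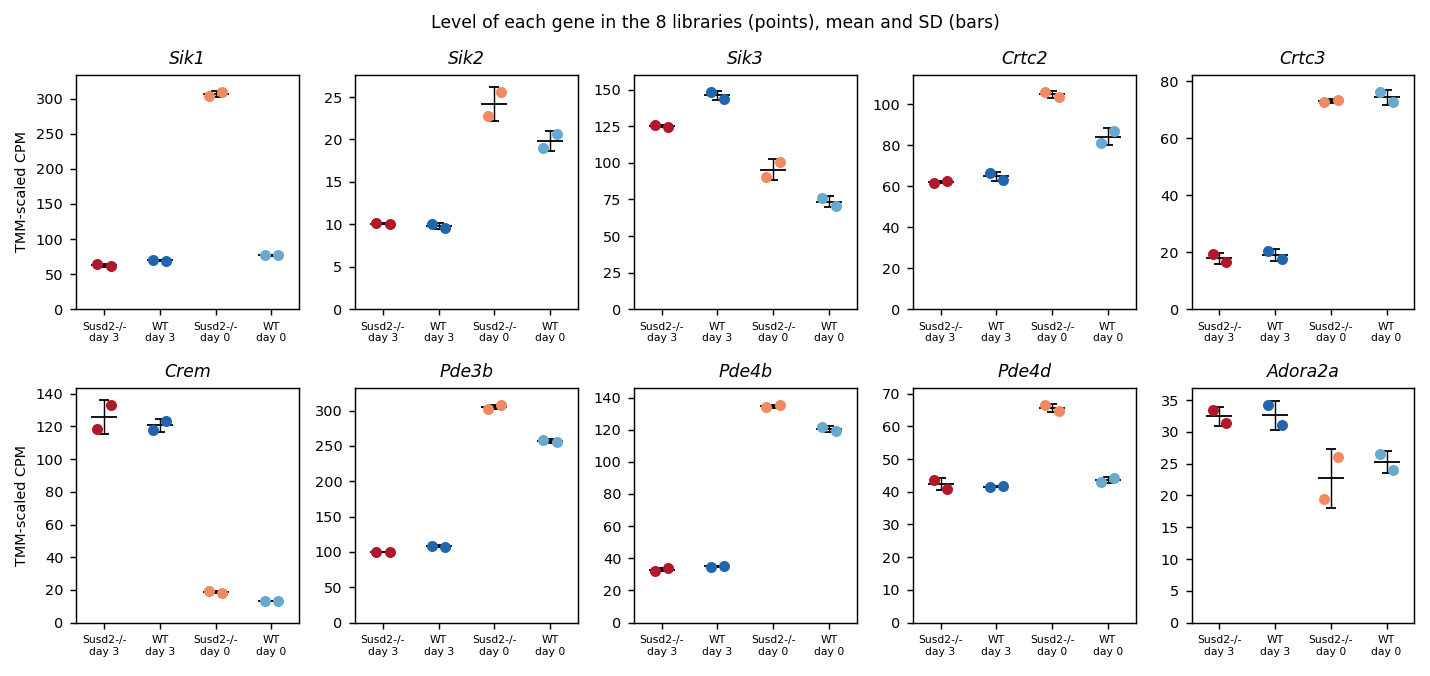
TMM-scaled CPM of the 10 genes (vertical axes, each from 0) in the Susd2-/- day 3, WT day 3, Susd2-/- day 0 and WT day 0 libraries; points are libraries, and bars are the mean and SD of 2. Sik1 stands at 304.1 and 309.6 CPM in Susd2-/- day 0 and at 77.2 or lower in each other library.

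Sik3, the largest kinase of the family, rose in Susd2-/- cells at day 0. It lies at chr9:46012820-46224194 on the plus strand. Its level was 90.4 and 100.4 CPM in Susd2-/- day 0 against 76.0 and 70.7 in WT day 0, with no overlap. The log2 fold change was 0.38 ± 0.071 (adjusted p = 0.000718, edgeR's quasi-likelihood test). At day 3 the order was turned round, with 125.6 and 124.7 CPM in Susd2-/- and 148.4 and 143.8 in WT. That day 3 difference did not pass (log2 fold change -0.22 ± 0.069, adjusted p = 0.334).

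Sik2, at chr9:50892801-51009073 on the minus strand, had the lowest levels of the family. It measured 22.8 and 25.6 CPM in Susd2-/- day 0 and 19.0 and 20.6 in WT day 0. The libraries did not overlap, but the difference did not pass (log2 fold change 0.29 ± 0.13, adjusted p = 0.105, edgeR). At day 3 its level was 10.1 and 10.02 CPM in Susd2-/- and 10.01 and 9.52 in WT (adjusted p = 0.99). Part of Sik2 is overlapped on the other strand by Ppp2r1b, and the strand setting of the counting is not given in the sources used here.

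Per kilobase of exon, the order within the family differed between the groups. On that scale, in CPM per kilobase, Susd2-/- day 0 cells had 59.8 ± 0.76 for Sik1, 10.2 ± 0.76 for Sik3 and 2.54 ± 0.21 for Sik2 (SD, n = 2). WT day 0 cells had 14.98 ± 0.083, 7.87 ± 0.40 and 2.08 ± 0.12 for the same 3 genes. At day 3, Sik3 was level with or above Sik1, with 13.4 ± 0.068 against 12.2 ± 0.33 in Susd2-/- cells and 15.7 ± 0.34 against 13.5 ± 0.19 in WT cells. Sik2 was the lowest in each group, at 1.06 ± 0.0084 in Susd2-/- day 3 and 1.02 ± 0.037 in WT day 3.

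Of the CREB coactivators that the salt-inducible kinases phosphorylate, Crtc2 rose in Susd2-/- cells at day 0 and Crtc3 did not pass. Crtc2 (chr3:90254163-90264125, plus strand) had 105.9 and 103.5 CPM in Susd2-/- day 0 and 81.2 and 86.9 in WT day 0, a log2 fold change of 0.32 ± 0.069 (adjusted p = 0.00239, edgeR). Crtc3 (chr7:80586627-80688877, minus strand) had 72.7 and 73.6 CPM in Susd2-/- day 0 and 76.3 and 72.7 in WT day 0. Those Crtc3 values overlapped, with a log2 fold change of -0.03 ± 0.089 (adjusted p = 0.873). At day 3, Crtc2 had 61.7 and 62.5 CPM in Susd2-/- and 66.2 and 63.2 in WT. Crtc3 at day 3 had 19.3 and 16.6 CPM in Susd2-/- and 20.5 and 17.6 in WT. Neither difference passed (adjusted p = 0.896 for Crtc2 and 0.881 for Crtc3). An antisense gene overlaps part of Crtc3.

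Crem codes for activators and repressors that bind cAMP response elements, among them the inducible repressor ICER, which an internal promoter makes. The table has 1 count for the gene, which has 39 annotated transcripts, so these forms cannot be told apart, and Gm6225 overlaps it on the other strand. Crem had 19.2 and 18.2 CPM in Susd2-/- day 0 against 13.3 and 13.5 in WT day 0, with no overlap. It rose by a log2 fold change of 0.48 ± 0.09 (adjusted p = 0.00075, edgeR). At day 3 it had 118.2 and 133.0 CPM in Susd2-/- and 117.7 and 123.5 in WT, which overlapped (log2 fold change 0.06 ± 0.074, adjusted p = 0.905).

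The phosphodiesterases were all higher in both Susd2-/- libraries at day 0, and 2 of the 3 passed. Pde4d, a cAMP-specific enzyme of the PDE4 family (chr13:108449948-109953461, plus strand), had 66.5 and 64.7 CPM in Susd2-/- day 0 and 43.0 and 44.3 in WT day 0. It rose by a log2 fold change of 0.59 ± 0.078 (adjusted p = 2.46e-05, edgeR), the largest among the 9 genes tested. Its day 3 level was 43.6 and 41.0 CPM in Susd2-/- and 41.5 and 41.6 in WT. The Susd2-/- day 0 libraries thus stood apart from the other 6, as for Sik1. The pseudogene Rps3a3 lies within Pde4d on the same strand, and 2 small RNA genes lie on the other.

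Pde3b, an enzyme that cGMP inhibits (chr7:114415281-114539251, plus strand), had the highest level of the 3. It had 302.8 and 307.6 CPM in Susd2-/- day 0 against 258.8 and 255.4 in WT day 0, and rose by a log2 fold change of 0.25 ± 0.058 (adjusted p = 0.00425, edgeR). At day 3 it had 99.4 and 99.7 CPM in Susd2-/- and 109.0 and 107.6 in WT (adjusted p = 0.64). The sign of the Pde3b difference was thus opposite on the 2 days, and the day 3 part did not pass.

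Pde4b, a PDE4 enzyme that is recruited on T cell receptor signalling (chr4:102087543-102607259, plus strand), had 134.0 and 135.2 CPM in Susd2-/- day 0 and 121.8 and 119.2 in WT day 0. The libraries did not overlap, and the difference did not pass (log2 fold change 0.16 ± 0.066, adjusted p = 0.0893, edgeR). At day 3 Pde4b had 32.1 and 33.7 CPM in Susd2-/- and 34.6 and 35.3 in WT (adjusted p = 0.833). Per kilobase of exon, the 3 enzymes kept the order Pde3b, Pde4b, Pde4d at day 0, with 33.5, 12.8 and 5.46 CPM per kilobase in Susd2-/- and 28.2, 11.4 and 3.64 in WT. At day 3 Pde4b and Pde4d had 3.12 ± 0.10 and 3.52 ± 0.15 CPM per kilobase in Susd2-/- cells and 3.31 ± 0.044 and 3.46 ± 0.0088 in WT cells. Pde4b has 13 annotated transcripts and Pde4d 20, and the counts do not separate them.

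Adora2a, the adenosine receptor that raises cAMP through Gs, had 19.4 and 26.01 CPM in Susd2-/- day 0 and 26.5 and 24.0 in WT day 0. These values overlapped (log2 fold change -0.15 ± 0.13, adjusted p = 0.424, edgeR). Its 2 Susd2-/- day 0 libraries lay further apart than those of the other genes relative to their mean. At day 3 it had 33.5 and 31.4 CPM in Susd2-/- and 34.2 and 31.0 in WT (adjusted p = 1.0). Adora2a (chr10:75316877-75334784, plus strand) lies 301922 bases from Susd2 on the same chromosome.

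At day 0, 5 of the 9 tested genes rose in Susd2-/- cells (Sik3, Crem, Crtc2, Pde4d and Pde3b), none fell, and 4 did not pass. Of all genes tested, 11.5% rose at day 0 and 23.6% passed in either direction. The median log2 fold change was 0.29 over the 9 genes and 0.01 over all genes. Both Susd2-/- libraries were above both WT libraries except in Crtc3 and Adora2a, where they overlapped. How many of all genes separate in this way was not counted, so nothing particular to these 9 is read from it. Without Susd2-/- day 0 replicate 3, or without WT day 0 replicate 3, 3 genes were called: Crtc2 and Pde3b lost their calls. Pde3b also lost its call without WT day 0 replicate 4. When the 2 libraries of each day 0 group were counted as 1 sample, only Pde4d was called (adjusted p = 0.0223, edgeR).

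Markers of other cells moved at day 0 as well. Of the 14 macrophage and monocyte markers, 8 rose in Susd2-/- cells and none fell, while 11.5% of all genes rose and 12.1% fell. Their summed level in Susd2-/- day 0 was the 174.6 to 190.9 CPM given above, against 89.9 to 90.2 in WT. Each of the 14 had counts in both day 0 groups. Vcam1, an adhesion molecule of splenic macrophages, had 32.85 and 32.1 CPM in Susd2-/- day 0 and 10.8 and 12.2 in WT day 0. Only Lyz2 was lower in Susd2-/- day 0, at 8.1 and 7.0 CPM, than in WT day 0, at 9.9 and 11.2. That Lyz2 difference did not pass (log2 fold change -0.48 ± 0.26, adjusted p = 0.215, edgeR). Without Susd2-/- day 0 replicate 3 the number of these markers that rose was 4, without WT day 0 replicate 3 it was 5, and with the day 0 libraries counted as 1 sample it was 2. Of the 6 B cell markers 2 rose, with sums of 578.8 to 643.6 CPM in Susd2-/- day 0 and 507.6 to 516.4 in WT day 0, and of the 6 CD8 T cell markers 3 fell. Of the 4 plasma cell markers 2 fell and 1 rose, with sums of 10.3 to 11.7 CPM in Susd2-/- day 0 and 36.3 to 38.3 in WT day 0. The antibody chain genes Igha (log2 fold change -2.47 ± 0.23, adjusted p = 5.14e-07, edgeR) and Jchain (-2.24 ± 0.32, adjusted p = 4.51e-05) were those that fell. The NK cell marker Klra4 (adjusted p = 0.0318) and the erythroid marker Hbb-bs (adjusted p = 0.0377) fell and the dendritic cell marker Zbtb46 rose (adjusted p = 0.0219), each a call lost without any 1 of the 4 day 0 libraries. The part of these cells in the day 0 differences was not tested.

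At day 3, none of the 9 tested genes was called between Susd2-/- and WT cells by edgeR's quasi-likelihood test, DESeq2 or limma voom. Of all genes tested, 0.137% were called there (0.0498% higher and 0.0872% lower in Susd2-/- cells). With each tool, 1 of the 9 was below an unadjusted p of 0.05, and the share of all genes below it was not counted. The smallest adjusted p among the 9 was 0.334 with edgeR, 0.381 with DESeq2 and 0.216 with limma voom. The median log2 fold change was -0.06 over the 9 genes and 0.00 over all genes. Both Susd2-/- libraries were below both WT libraries in Sik3, Crtc2, Pde3b and Pde4b, and above in Sik2. The shares of calls above do not measure such separation. Its share over all genes was not counted, so nothing is read from it.

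**Figure D2:**
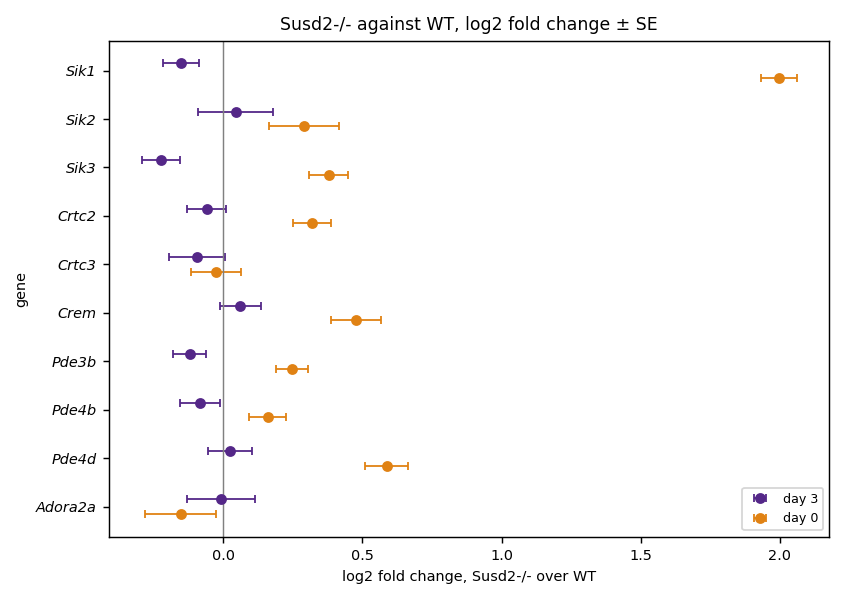
Log2 fold change of Susd2-/- over WT (horizontal axis) for each of the 10 genes, at day 3 (purple) and day 0 (orange); bars are the SE of the fit over 8 libraries. Sik1 reaches 2.00 at day 0, the next point is Pde4d at 0.59, and the day 3 points lie between -0.22 and 0.06.

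The genotype effect at day 3 minus that at day 0 was negative in the 9 other genes except Adora2a. It was -0.60 ± 0.099 for Sik3, -0.56 ± 0.11 for Pde4d and -0.42 ± 0.12 for Crem on the log2 scale. For Crtc2 it was -0.38 ± 0.098 and for Pde3b -0.37 ± 0.083. The smaller values were -0.24 ± 0.18 for Sik2, -0.24 ± 0.097 for Pde4b, -0.07 ± 0.13 for Crtc3 and 0.14 ± 0.18 for Adora2a. The median was -0.37 over the 9 genes and -0.007 over all genes, and the share of all genes below 0 was not counted. This genotype-by-day difference chose the list through Sik1 and gets no test.

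Most of these genes differed between day 3 and day 0, in both genotypes. None of the 4 groups was cultured for 3 days without the peptide. Stimulation and time in culture therefore cannot be told apart. In Susd2-/- cells, 3 of the 9 tested genes rose by day 3 (Sik3, Crem and Adora2a) and 6 fell, while 76.4% of all genes passed in either direction (36.7% rose and 39.7% fell). In WT cells the same 3 genes rose, 5 fell and 1, Pde4d, did not pass, while 75.2% of all genes passed (36.2% rose and 39.0% fell). Most of all genes thus passed too, and nothing particular to these 9 is read from their counts. The median log2 fold change of all genes was -0.12 in Susd2-/- and -0.14 in WT with TMM scaling, and -0.32 in both with library totals, so day 3 changes are to be read against those values.

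Crem had the largest day 3 change of the 10, with means of 125.6 ± 10.4 CPM in Susd2-/- day 3 against 18.7 ± 0.70 in Susd2-/- day 0 (SD, n = 2 each), a 6.74-fold rise (log2 fold change 2.75 ± 0.083, adjusted p = 3.24e-16, edgeR). In WT cells it had 120.6 ± 4.06 CPM at day 3 against 13.4 ± 0.081 at day 0, an 8.996-fold rise (log2 fold change 3.17 ± 0.086, adjusted p = 7.26e-17). Sik3 rose by a log2 fold change of 0.39 ± 0.07 in Susd2-/- cells (adjusted p = 5.04e-05) and 0.99 ± 0.071 in WT cells (adjusted p = 1.68e-10). Its relative Sik2 went the other way and fell in both genotypes. Sik1, which was not tested, had lower values at day 3 in both. In WT cells its log2 fold change (-0.15) was close to the median of all genes (-0.14), so no change relative to other genes is read there.

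For Sik1 the log2 fold change of day 3 over day 0 was -2.30 ± 0.065 in Susd2-/- cells and -0.15 ± 0.064 in WT cells, with no test. Sik2 fell by 1.26 in Susd2-/- cells (adjusted p = 3.47e-08, edgeR) and by 1.02 in WT cells (adjusted p = 9.78e-07) on the log2 scale. Adora2a rose by a log2 fold change of 0.51 ± 0.12 in Susd2-/- cells (adjusted p = 0.00107) and 0.37 ± 0.12 in WT cells (adjusted p = 0.0119). The WT call of Adora2a was lost with library totals (log2 fold change 0.19, adjusted p = 0.18), without WT day 3 replicate 1 (adjusted p = 0.0522) and without WT day 0 replicate 4 (adjusted p = 0.0947).

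The phosphodiesterases and coactivators were lower at day 3. Pde4b fell by 2.03 on the log2 scale in Susd2-/- cells and 1.79 in WT cells, Pde3b by 1.62 in Susd2-/- and 1.25 in WT, and Crtc3 by 2.03 in Susd2-/- and 1.96 in WT (largest of these 6 adjusted p-values 5.85e-13, edgeR). Crtc2 fell by 0.75 in Susd2-/- cells (adjusted p = 7.62e-09) and 0.38 in WT cells (adjusted p = 8e-05). Pde4d fell by 0.64 in Susd2-/- cells (adjusted p = 4.35e-07), and in WT cells its log2 fold change was -0.07 ± 0.079 (adjusted p = 0.417). With library totals the WT value of Pde4d was -0.25 and passed (adjusted p = 0.00703). All 14 macrophage and monocyte markers fell by day 3 in Susd2-/- cells, where 39.7% of all genes fell. In WT cells 12 of them fell, where 39.0% of all genes did. The part of these markers' cells in the differences above was not tested.

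**Figure D3:**
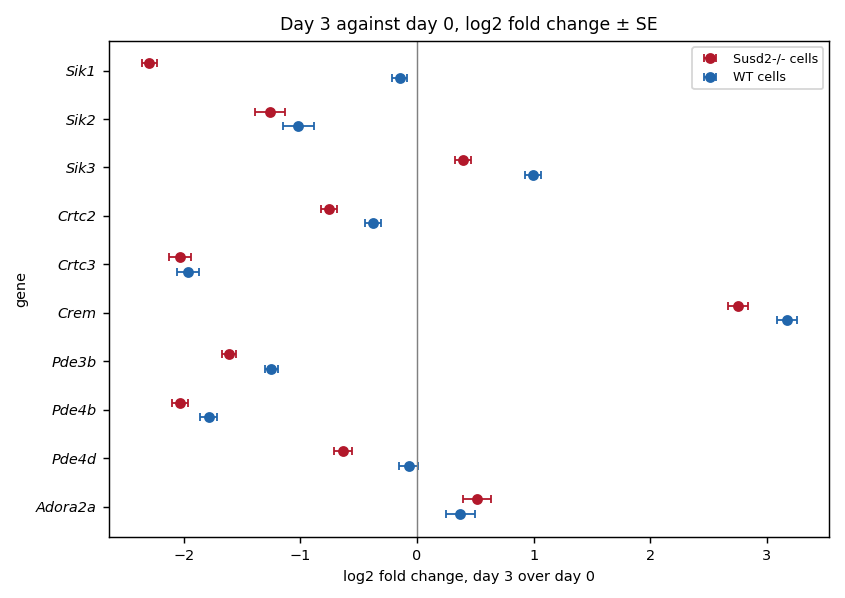
Log2 fold change of day 3 over day 0 (horizontal axis) for each of the 10 genes, in Susd2-/- (red) and WT cells (blue); bars are the SE of the fit over 8 libraries. Crem, Sik3 and Adora2a lie right of 0 in both genotypes, and Sik1 lies at -2.30 in Susd2-/- and -0.15 in WT.

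Other genes of the pathway, grouped in 7 lists by role, were called in both directions at day 0, as were all genes (23.6% called, 11.5% higher and 12.1% lower), and the lists' counts are to be read against those shares. Of 10 Gs-coupled receptors that passed the filter, 2 rose in Susd2-/- cells and 1 fell, and 1 rose when any 1 of the 4 day 0 libraries was left out. Ptger4, a prostaglandin E2 receptor, had 34.3 and 36.2 CPM in Susd2-/- day 0 and 25.2 and 22.5 in WT day 0 (log2 fold change 0.56 ± 0.096, adjusted p = 0.000297, edgeR). Gpr174, a receptor for lysophosphatidylserine, had 66.96 and 67.1 CPM in Susd2-/- day 0 and 89.5 and 90.7 in WT day 0 (log2 fold change -0.43 ± 0.073, adjusted p = 0.000328).

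Of 9 G protein and adenylyl cyclase genes, 2 rose and 1 fell. Gnas, which codes for the Gs alpha subunit, rose by a log2 fold change of 0.37 ± 0.098 (adjusted p = 0.00921, edgeR), and Gnai3, an inhibitory alpha subunit, fell by 0.26 (adjusted p = 0.0044). The cyclase Adcy3 rose by 0.31 ± 0.10 (adjusted p = 0.0344). The calls of Gnas and Gnai3 were lost without Susd2-/- day 0 replicate 4 or WT day 0 replicate 3, and that of Adcy3 without any 1 day 0 library. Without Susd2-/- day 0 replicate 4 or WT day 0 replicate 3, 0 genes of this list were called.

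Of 9 other cAMP phosphodiesterases, 3 rose and 1 fell. Pde7a, a cAMP-specific enzyme expressed in T cells, had 256.6 and 261.1 CPM in Susd2-/- day 0 and 209.6 and 213.5 in WT day 0 (log2 fold change 0.29 ± 0.06, adjusted p = 0.00159, edgeR). Pde1b, which calmodulin activates, rose by a log2 fold change of 0.52 ± 0.12 (adjusted p = 0.00511), and Pde11a fell by 1.28 (adjusted p = 0.00271). Each of these calls was lost without at least 1 library: WT day 0 replicate 3 for Pde7a and Pde1b, Susd2-/- day 0 replicate 3 for Pde1b, and Susd2-/- day 0 replicate 4 for Pde11a. Without WT day 0 replicate 3, or with the day 0 libraries counted as 1 sample, 0 genes of this list rose.

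Of 19 genes for PKA subunits, PKA inhibitors, anchoring proteins and Epac, none rose and 1 fell. It was Prkacb, a catalytic subunit, with 269.6 and 281.8 CPM in Susd2-/- day 0 and 323.9 and 335.8 in WT day 0 (log2 fold change -0.26 ± 0.062, adjusted p = 0.00478, edgeR). Its call was lost without Susd2-/- day 0 replicate 3 or WT day 0 replicate 4. With library totals 2 genes of this list rose. Of the 5 CREB family and coactivator genes, 3 rose. Crebbp, the acetyltransferase that binds phosphorylated CREB, had 117.7 and 133.2 CPM in Susd2-/- day 0 and 83.8 and 86.2 in WT day 0 (log2 fold change 0.56 ± 0.08, adjusted p = 5.27e-05). Its relative Ep300 rose by 0.23 ± 0.07 (adjusted p = 0.0228) and Creb1 by 0.24 ± 0.082 (adjusted p = 0.0407), and both calls were lost without any 1 day 0 library.

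Of 15 genes for the LKB1 complex, 14-3-3 proteins and class IIa histone deacetylases, 4 rose and 3 fell. With 1 day 0 library left out, 0 to 2 rose and 1 fell, and with the day 0 libraries counted as 1 sample 0 rose and 1 fell. Cab39l, a scaffold of the MO25 type, to which LKB1 binds, had 28.1 and 27.5 CPM in Susd2-/- day 0 and 43.4 and 45.6 in WT day 0 (log2 fold change -0.68 ± 0.089, adjusted p = 2.24e-05, edgeR). Hdac7, a salt-inducible kinase substrate, rose by 0.30 ± 0.069 (adjusted p = 0.00357), and Strada, the pseudokinase partner of LKB1, fell by 0.28 (adjusted p = 0.0321). The call of Hdac7 was lost without either WT day 0 library, and that of Strada without any 1 day 0 library. The Strada call was also lost with library totals, DESeq2 or its size factors, no filter, lane 1 alone and the replicate block. With DESeq2, 5 genes of this list rose and 1 fell.

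The genes that CREB is known to switch on had the highest counts of calls. Of 13 such genes that passed the filter, 12 rose in Susd2-/- cells at day 0 and none fell, with a median log2 fold change of 1.42. Several were known from earlier results of these data to be higher there, so the count supports nothing by itself. Per1, a circadian regulator, had 182.5 and 190.8 CPM in Susd2-/- day 0 and 57.0 and 62.6 in WT day 0 (log2 fold change 1.64 ± 0.078, adjusted p = 1.01e-10, edgeR). Nr4a1, an orphan nuclear receptor induced by receptor signals, had 221.2 and 213.1 CPM in Susd2-/- day 0 and 80.5 and 82.1 in WT day 0 (log2 fold change 1.42 ± 0.069, adjusted p = 1.29e-10). Fos, a subunit of AP-1, had 564.7 and 536.8 CPM in Susd2-/- day 0 and 216.5 and 220.6 in WT day 0 (log2 fold change 1.33 ± 0.068, adjusted p = 2.02e-10). The exception was Junb, another AP-1 subunit, at 1327 and 1116 CPM in Susd2-/- day 0 and 834.1 and 842.9 in WT day 0, which did not pass (log2 fold change 0.54 ± 0.26, adjusted p = 0.237). With the day 0 libraries counted as 1 sample, 6 of the 19 genes picked by smallest adjusted p from the 7 lists kept their calls: Ptger4, Crebbp, Cab39l, Per1, Nr4a1 and Fos. Many genes of the CREB target list are also induced by signals other than cAMP, Fos and Nr4a1 by T cell receptor engagement among them.

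At day 3 none of the genes in these 7 lists was called between genotypes with edgeR. Below an unadjusted p of 0.05 (edgeR) were 4 of 10 receptors, 3 of 9 G proteins and cyclases and 2 of 9 other phosphodiesterases. So were 3 of 19 genes of the PKA list, 0 of 5 of the CREB family, 2 of 15 of the LKB1 list and 2 of 13 CREB targets. The share of all genes below that p was not counted, so nothing is read from these numbers. DESeq2 called 1 G protein or cyclase gene and limma voom called none. Between day 3 and day 0, 4 of the 13 CREB target genes rose and 9 fell in Susd2-/- cells, and 5 rose and 6 fell in WT cells. Of all genes, 36.7% rose and 39.7% fell in Susd2-/- cells, and 36.2% rose and 39.0% fell in WT cells. Most of all genes were thus called too, and nothing particular to the CREB targets is read from these counts.

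**Figure D4:**
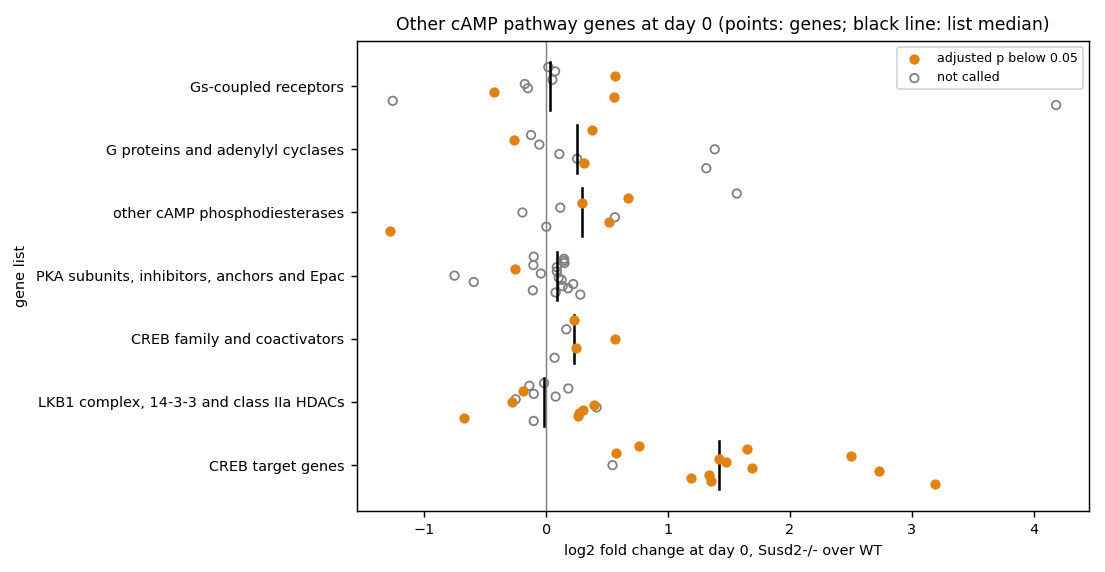
Log2 fold change of Susd2-/- over WT at day 0 (horizontal axis) for the genes of 7 pathway lists that passed the filter; filled points had an adjusted p below 0.05 and black lines are list medians. The CREB target line stands at 1.42 with 12 of 13 points filled, and the open receptor point at 4.18 is Adora2b, which had 0 counts in WT day 0, so that its value is no bound.

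RefSeq promoter windows matched 13 of the 15 CREB target genes, in 14 windows. All 14 held a core, against 20.8% of all windows, and those of Dusp1 and Areg held the full element. These genes were listed because CREB is known to act on them, so the count is no independent result. Stretches of 4 are shown for comparison with Sik3 and Pde4b above, with cores again in capitals, and in Dusp1 the whole element. They are Dusp1 (chr17:26508573-26508682, minus strand), Fos (chr12:85473740-85473849, plus strand), Nr4a1 (chr15:101266736-101266845, plus strand) and Nr4a2 (chr2:57124094-57124223, minus strand).
Dusp1: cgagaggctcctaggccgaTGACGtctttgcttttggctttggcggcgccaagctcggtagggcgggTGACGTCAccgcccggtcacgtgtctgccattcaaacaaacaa
Fos: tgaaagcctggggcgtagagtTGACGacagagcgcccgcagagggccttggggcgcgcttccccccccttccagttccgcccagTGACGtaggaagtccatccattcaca
Nr4a1: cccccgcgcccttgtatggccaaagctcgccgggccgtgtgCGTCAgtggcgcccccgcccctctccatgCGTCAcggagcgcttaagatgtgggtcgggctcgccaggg
Nr4a2: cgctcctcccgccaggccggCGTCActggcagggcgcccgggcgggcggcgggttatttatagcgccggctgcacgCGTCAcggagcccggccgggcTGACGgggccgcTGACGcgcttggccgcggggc
Dusp1, a phosphatase of MAP kinases, had 398.6 and 373.9 CPM in Susd2-/- day 0 and 149.6 and 152.4 in WT day 0. Nr4a2, a relative of Nr4a1, had 24.3 and 27.2 CPM in Susd2-/- day 0 and 4.53 and 4.58 in WT day 0. Both pairs of groups lay apart, as for Sik1.

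Pde4d was the only one of the 9 other genes among those whose levels followed Sik1 most closely. The measure was Pearson's r of log2 CPM over the 8 libraries, among genes with an average log2 CPM of at least 1. Numbered predicted genes, Riken clones and genes with pseudogene symbols (-ps) were left out. The 5 nearest genes were Per1 (r = 0.993), Pde4d (0.992), Spty2d1 (0.991), Tob2 (0.989) and Lman2l (0.988). The points share their libraries and 4 groups, so these values are a description. Spty2d1, a histone chaperone gene, had 108.3 CPM on average in Susd2-/- day 0 and 66.9 in WT day 0, and 59.2 in Susd2-/- day 3 and 60.3 in WT day 3. Tob2, an antiproliferative factor, had 125.7 CPM in Susd2-/- day 0 and 84.1 in WT day 0, and 80.4 in Susd2-/- day 3 and 77.9 in WT day 3. Like Sik1, each of the 5 was highest in Susd2-/- day 0, which follows from picking them by likeness to Sik1. Of the remaining members, r with Sik1 was 0.883 for Crtc2, 0.771 for Sik2, 0.742 for Pde3b, 0.698 for Pde4b and 0.647 for Crtc3. It was -0.31 for Sik3, -0.56 for Crem and -0.73 for Adora2a, the 3 genes that rose by day 3.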

How the data were processed

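Per the labels' protocols, poly(A) RNA went through a strand-specific kit and was read from both ends. The authors deposited raw read counts for 27019 gene symbols, not normalized, in 15 columns that hold 1 sequencing lane each. The submitters' processing notes list HISAT2 2.1.0 and Subread 2.0.1, fastp 0.23.2 and SAMtools 1.10, with the build GRCm38. Their roles, the gene annotation used, whether counting used strand, and how reads with several alignments were handled: not given in the sources used here.

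Lanes were summed into 8 libraries (7 with 2 lanes, and WT day 3 replicate 2 with 1), with totals of 26829807 to 53846911 counts. Genes were filtered with filterByExpr, scaled by TMM and fitted with edgeR 4.0.16 (R 4.3.3), glmQLFit with robust estimation, 4 group means and 4 residual degrees of freedom. P-values were adjusted by Benjamini-Hochberg over the 16057 genes tested, and a gene was called at an adjusted p below 0.05. Fold changes are those of the fit. DESeq2 1.42.0, limma 3.58.1 (voom), other scalings, no filter, lane 1 alone, only the compared libraries, single libraries left out and day 0 libraries counted as 1 were alternatives. The last was run because the chi-square per degree of freedom between the WT day 0 libraries (3.37) was near that between lanes of 1 library (3.01 to 3.17), against 6.30 between the Susd2-/- day 0 libraries, and 12.5 (WT) and 16.0 (Susd2-/-) at day 3. The fit was tested on simulated data.

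The members and lists were chosen with earlier results of these data known. All 10 members are named. From each pathway list, up to 3 genes of smallest adjusted p at day 0 are named, besides Junb, Dusp1 and Nr4a2, which were named after their values were seen, as were the markers given by name at day 0. One gene that this rule picks is not reported here. Replicate numbers were not taken to pair libraries: the labels give them no shared meaning, and deviations of same-numbered libraries correlated at 0.01 (day 0) and -0.01 (day 3). Gene positions are from GENCODE M21 (GRCm38) and promoter sequences from RefSeq (GRCm38.p6).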

Additional observations from a re-analysis of the deposited data

Results flagged for a closer look

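For Sik1, Sik3, Crtc2, Pde4b and Pde3b, both Susd2-/- libraries were above both WT libraries at day 0 and below them at day 3. The sign of the difference was thus opposite on the 2 days. The share of all genes that do so was not counted, and nothing particular to these genes is read from it. The log2 fold changes of Susd2-/- over WT were -0.15 at day 3 and 2.00 at day 0 for Sik1, and -0.22 at day 3 and 0.38 at day 0 for Sik3. They were -0.060 at day 3 and 0.32 at day 0 for Crtc2, -0.084 at day 3 and 0.16 at day 0 for Pde4b, and -0.12 at day 3 and 0.25 at day 0 for Pde3b. The difference between the days was not tested, since it was used to choose the list, and none of the 4 tested genes passed at day 3. The day 3 value of Crtc2 was positive from lane 1 alone (0.038) and without WT day 3 replicate 1 (0.021).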

How the results depend on the processing

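At day 0 the 5 calls became 1 with the libraries of each day 0 group counted as 1 sample, where the adjusted p was 0.0661 for Sik3, 0.0617 for Crem, 0.123 for Crtc2 and 0.204 for Pde3b (edgeR), and 3 to 5 with 1 library left out. They became 6 with library totals, adding Pde4b (adjusted p = 0.038), and 7 with only the 4 day 0 libraries fitted, adding Pde4b (0.0184) and Sik2 (0.0311). The Sik1 genotype-by-day difference was -2.08 without the filter, -2.22 from lane 1 alone and -2.18 to -2.07 with 1 library left out. Uncalled values changed sign: at day 0, Crtc3 with library totals (0.0079) and Adora2a with 1 library left out (-0.37 to 0.031). At day 3 this held for Sik2 (-0.11), Crtc2 (0.038) and Crtc3 (0.074) from lane 1, and for Adora2a with library totals (0.0056) or no filter (0.035). With 1 library left out at day 3, the ranges were -0.028 to 0.14 for Crem, -0.069 to 0.021 for Crtc2, -0.20 to 0.069 for Crtc3, -0.021 to 0.068 for Pde4d and -0.056 to 0.11 for Adora2a. The cause was not tested. With the replicate block, 5 of these genes were called at day 0 and 0 at day 3. Over all genes, 3792 calls at day 0 became 725 with day 0 libraries counted as 1, 2044 and 2088 without WT day 0 replicates 3 and 4, and 2342 and 2104 without Susd2-/- day 0 replicates 3 and 4. With 1 library left in a group, it was assumed to vary like the others. The 22 calls at day 3 became 1 to 392. In Susd2-/- cells no day 3 call was lost in 144 values under the alternatives. With 2 libraries a group, small differences such as those of Sik2 and Pde4b may pass undetected.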
